A study of Mus musculus with 8 samples.

Results

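The replication-dependent histone genes of mouse blood were taken as every gene of the count table whose symbol begins with Hist1h, Hist2h, Hist3h or Hist4h. This gave 67 genes of 21878, of which 6 encode H1, 18 H2A, 18 H2B, 12 H3 and 13 H4. Of these 67 genes, 28 had 10 or more counts in at least 4 of the 8 samples and were tested, as were 11718 genes of the whole table. The samples were peripheral blood of female C57BL/6 WT mice aged 6 to 8 weeks, 4 in the stress group and 4 in the control group. The stress group was restrained in a ventilated tube for 6 hours, the control group was not restrained, and both were without food and water. The comparison addressed how acute restraint changes transcripts of blood cells. The sources used here do not say more on what a numbered sample is, so p-values measure the spread between these samples.

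Replication-dependent histone genes supply the core histones H2A, H2B, H3 and H4, around which DNA is wound, and the linker histone H1, which binds the DNA between nucleosomes. They lie in clusters, are transcribed mainly in S phase, and give messages that as a rule have no introns and end in a conserved stem-loop bound by SLBP in place of a poly(A) tail. Some of them also give polyadenylated messages in cells that no longer divide. Blood holds mostly cells that have left the cell cycle, together with platelets and young red cells that carry RNA from their precursors. The libraries were made with the Illumina TruSeq RNA Sample Prep Kit, which is commonly used to capture polyadenylated RNA. How completely each histone message was captured was not tested.

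On the mm10 (GRCm38) build, 54 of the 67 genes lie on chromosome 13, 10 on chromosome 3, 2 on chromosome 11 and 1 on chromosome 6 (GENCODE M21). The proteins they encode are few: translation of the annotated coding parts gave 29 distinct proteins, and 45 genes shared their protein with at least 1 other. All 13 H4 genes encode the same 103 residues. A group of 9 H2A genes, which includes Hist1h2ac, Hist1h2ab and Hist1h2ae, encodes 1 protein, and groups of 8 and of 4 genes account for all 12 H3 genes. For 28 of the 67 genes, and for 11 of the 28 tested, over 50% of the 100-base stretches of the transcript also occurred in transcripts of another annotated gene. Matches on either strand were counted. Some, such as that of Hist2h3b with Gm20628, were to an annotated gene at the same place that the count table does not hold. Reads from such stretches cannot be assigned to 1 gene by sequence alone, and how the authors counted them is not given in the sources used here.

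The stem-loop is shown because it is the feature that sets these messages apart, and because the annotated transcripts of the most abundant members differ in whether they end there. A 6-base inverted repeat around a 4-base loop was found in annotated transcripts of 46 genes. It began 24 to 61 bases (median 34) after the last amino acid codon, with the stop codon counted among these bases. The form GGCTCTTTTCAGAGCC was found in 26 genes, all of them H1, H2A, H2B or H3, and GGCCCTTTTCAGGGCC in 7 genes, all of them H4. In the lines here, from GENCODE M21 transcripts, the stem-loop is in capitals and the 5 bases on either side, or the 3 that remain in Hist1h4m, are in lower case.
Hist1h1c: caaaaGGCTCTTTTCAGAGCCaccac
Hist1h2ac: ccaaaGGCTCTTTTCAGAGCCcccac
Hist1h2be: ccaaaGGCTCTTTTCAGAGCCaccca
Hist1h3d: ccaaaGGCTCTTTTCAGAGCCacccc
Hist1h4i: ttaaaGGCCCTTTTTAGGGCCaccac
Hist1h4m: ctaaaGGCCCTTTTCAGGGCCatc
Hist1h4n: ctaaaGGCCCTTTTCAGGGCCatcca
The annotated transcripts of Hist1h4m and Hist1h4n end 3 and 31 bases after this element. Those of Hist1h1c, Hist1h2ac, Hist1h2be, Hist1h3d and Hist1h4i run on for 840, 2010, 1861, 752 and 330 bases. No such element was found in the annotated transcript of Hist1h2bc, which has 2 exons, nor in those of Hist1h2bq and Hist1h2br.

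Hist1h2bq and Hist1h2br, which encode the same H2B protein, are copies in opposite orientation. Hist1h2bq lies at chr13:21806612-21810197 on the minus strand and Hist1h2br at chr13:21833743-21837530 on the plus strand. Their short transcripts matched at 381 of 381 bases, and their 2-exon transcripts at 1254 of 1256 aligned columns, the other 2 being gaps. Of the 100-base stretches of Hist1h2bq, 94.8% also occurred in Hist1h2br, and 86.4% of those of Hist1h2br occurred in Hist1h2bq. The 300-base promoter windows of RefSeq (GRCm38.p6), chr13:21810150-21810449 on the minus strand and chr13:21833493-21833792 on the plus strand, were identical, with CCAAT or its complement ATTGG in capitals.
Hist1h2bq and Hist1h2br: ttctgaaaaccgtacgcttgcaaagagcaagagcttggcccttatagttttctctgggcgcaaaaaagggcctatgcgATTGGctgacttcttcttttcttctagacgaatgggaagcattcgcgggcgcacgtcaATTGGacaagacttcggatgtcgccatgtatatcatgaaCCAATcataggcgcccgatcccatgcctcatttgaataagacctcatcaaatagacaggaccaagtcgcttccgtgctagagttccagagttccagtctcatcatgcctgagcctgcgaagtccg
The promoter of Hist1h1c, the most abundant H1 member, at chr13:23738557-23738856 on the plus strand, and that of Hist1h2ac, the most abundant H2A member, at chr13:23683910-23684209 on the minus strand, are given for the motifs that differ between types. Capitals mark the CCAAT box, the TATA box (letters TATAAA), the octamer (letters ATTTGCAT) and the H1 box (letters AAACACA), on either strand.
Hist1h1c: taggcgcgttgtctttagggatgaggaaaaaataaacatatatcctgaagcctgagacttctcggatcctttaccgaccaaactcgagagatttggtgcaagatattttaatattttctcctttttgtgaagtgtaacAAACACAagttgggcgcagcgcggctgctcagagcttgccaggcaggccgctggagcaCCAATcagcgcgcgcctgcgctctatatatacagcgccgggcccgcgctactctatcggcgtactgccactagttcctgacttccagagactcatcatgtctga
Hist1h2ac: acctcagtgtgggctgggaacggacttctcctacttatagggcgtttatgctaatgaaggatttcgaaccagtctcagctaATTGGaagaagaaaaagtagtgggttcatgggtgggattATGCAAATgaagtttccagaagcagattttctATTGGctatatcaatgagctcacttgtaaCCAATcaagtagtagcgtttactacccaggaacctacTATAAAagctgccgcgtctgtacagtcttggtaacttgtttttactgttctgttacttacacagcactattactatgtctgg
A window near the annotated start was held for 60 of the 67 genes. CCAAT occurred in 85.0% of these and in 37.4% of all 32851 promoter windows, and it was present in every H1, H2A, H2B and H3 window but in 3 of 12 H4 windows. TATAAA occurred in 56.7% against 13.6%. The octamer was found in 7 of 17 H2A and 6 of 16 H2B windows and in 0 of the H1, H3 and H4 windows, against 1.74% of all windows. The H1 box was found in 4 of 5 H1 windows against 7.18% of all windows. H2A and H2B genes often lie head to head, so their windows can share bases. These letters are a description and not sites of binding.

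Few genes carried most of the histone counts. All 67 genes together took between 0.0361% and 0.0656% of the counts of a sample. Hist1h2bc, Hist1h1c and Hist1h4m held 79.5% of them (32.9%, 30.3% and 16.4%), followed by Hist1h4i with 4.11%, Hist1h2bn with 3.98%, Hist1h2ac with 2.19% and Hist1h4n with 2.11%. Levels of different genes were compared as CPM (counts per 1000000 of the TMM-normalized library) divided by the annotated exon length in kb. On this scale the control mean was 162 ± 48.9 CPM per kb (SD, n = 4) for Hist1h4m, 107 ± 27.6 for Hist1h2bc, 71.9 ± 16.2 for Hist1h1c, 39.6 ± 11.6 for Hist1h2bn, 21.2 ± 4.66 for Hist1h4i and 16.9 ± 5.34 for Hist1h4n. The level of Hist1h4m and that of Hist1h2bc differed by about as much as their SDs, and so did those of Hist1h4i and Hist1h4n. The median over all 67 genes was 0.199 CPM per kb, and 3 genes, Hist1h1t, Hist1h2aa and Hist3h2a, had no count in any sample. The 4 highest members thus belong to 3 types, and no H3 gene exceeded 5.46 CPM per kb and no H2A gene 3.40.

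**Figure D1:**
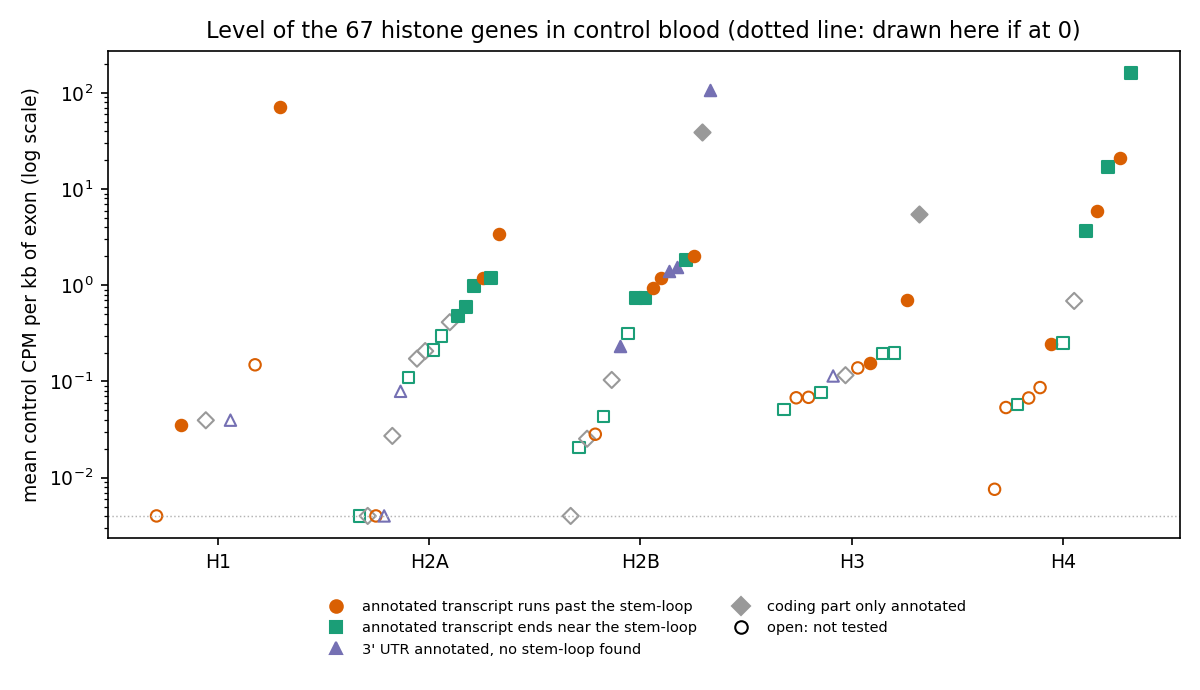
Mean CPM per kb of annotated exon in the control group (log axis) for the 67 histone genes, in order of level within each type; filled symbols were tested, and shape and colour give the annotated 3' end. A few genes of H1, H2B and H4 lie above 10 CPM per kb while the median is 0.199.

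Abundant members were found with each kind of annotated 3' end. The 23 genes whose transcript runs more than 100 bases past the stem-loop held 40.2% of the histone counts, with 12 tested. The 23 genes whose transcript ends within 100 bases of it held 20.03%, with 10 tested, and Hist1h4m gave most of these counts. The 8 genes with annotated bases after the stop codon but no stem-loop found held 34.99%, most of it Hist1h2bc. In Hist1h2af and Hist1h2ah, which are among them, these bases are too few to hold the element. The 13 genes with only a coding part annotated, Hist1h2bn and Hist1h3i among them, held 4.74%. The exon length of the last group leaves out the untranslated parts, so their CPM per kb is relative to a shorter length.

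The libraries held 25978683 to 39014775 counts, TMM factors ran from 0.507 to 1.77, and haemoglobin genes took 51.9% to 63.8% of the control and 61.2% to 75.5% of the stress counts. TMM takes most genes as unchanged, which put the median gene at -0.03 on the log2 scale. Total counts alone put it at -0.82. Blood is a mixture, and fewer cells of a type cannot be told apart from less RNA per cell.

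In the stress group 25 of the 28 tested histone genes had a positive log2 fold change, with a median of 0.72, while 47.1% of all tested genes were above 0. By the call of the study, an absolute log2 fold change above 1 with an adjusted p below 0.01, 2 of the 28 were higher, Hist1h2bq and Hist1h4n, against 1.69% of all tested genes. None was called lower, against 0.0171% of all genes, none had an unadjusted p below 0.05 in that direction, and DESeq2 and limma-voom also called 0 lower. With an adjusted p below 0.05 and no fold threshold, 9 of 28 (32.1%) were higher against 10.4% of all genes and 0 were lower against 3.69%. In 11 of 28 (39.3%) every stress sample exceeded every control sample, against 11.1% of all genes, and in 0 every stress sample was below, against 9.88%. The direction depends on the scale: by total counts alone 13 of 28 were above 0 and the members' median was -0.03, which is 0.79 above the median of all genes on that scale, as the TMM median was 0.74 above its own.

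Both calls were made on members of near-identical pairs. When the counts of 4 such pairs (Hist1h2bq with Hist1h2br, Hist1h4m with Hist1h4n, Hist1h2ao with Hist1h2ap and Hist2h2aa1 with Hist2h2aa2) were summed before the fit, 0 of the 25 tested histone entries were called, while 7 had an adjusted p below 0.05, all higher. This sum was chosen after the data were seen and was run with edgeR only. The median of the 25 entries was then 0.80. Without the sum, 10.4% of all tested genes were higher with an adjusted p below 0.05. The share of all genes with an unadjusted p below 0.05 is not given here. A count at that level therefore stands without a background. The gene lists below are counted at an adjusted p below 0.05, where 10.4% of all tested genes were higher and 3.69% lower.

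**Figure D2:**
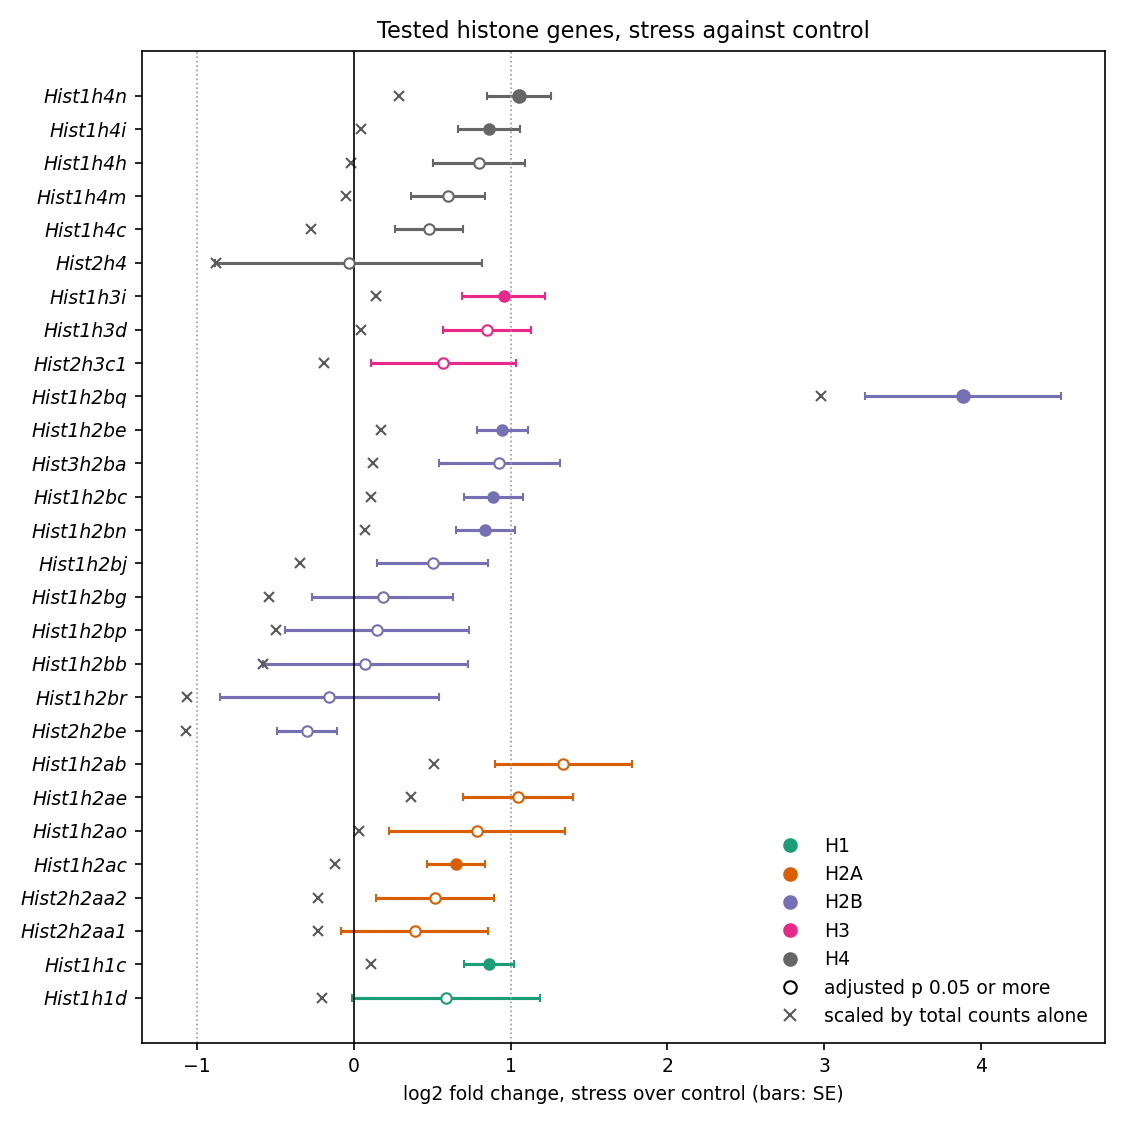
Log2 fold change of stress over control with its SE for the 28 tested histone genes, coloured by type; filled points have an adjusted p below 0.05, crosses give the value scaled by total counts alone, and dotted lines mark -1 and 1. Hist1h2bq stands at 3.89, 25 of the 28 points lie above 0, and the crosses lie to the left of the points, with 13 of 28 above 0.

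Summed over each type, the histone counts were higher in the stress group on the TMM scale. For all 67 genes the sum was 448, 295, 305 and 463 CPM in control samples 1 to 4 and 675, 680, 712 and 596 in stress samples 1 to 4, a mean of 378 ± 90.3 (SD, n = 4) against 666 ± 49.3, or 1.76-fold. The groups did not overlap. The fold was 1.82 for H1, 1.64 for H2A, 1.83 for H2B, 1.88 for H3 and 1.60 for H4, and in each type every stress sample was above every control sample. As CPM of the counts outside the haemoglobin genes the sum of all 67 genes was 1194 ± 152 against 1613 ± 96.2, 1.35-fold, without overlap. By type, the groups overlapped on that scale for H2A and H4 and did not for H1, H2B and H3. As CPM of all counts the sum of all 67 genes was 491 ± 50.03 against 513 ± 122, 1.04-fold, and the groups overlapped. The medians of the fitted log2 fold changes by type ranged from 0.50 (H2B) to 0.85 (H3) with TMM and from -0.34 (H2B) to 0.04 (H3) by total counts alone. Without Hist1h1c, Hist1h2bc and Hist1h4m the other 64 genes gave 77.5 ± 16.9 against 135 ± 17.04 CPM, 1.74-fold on the TMM scale.

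**Figure D3:**
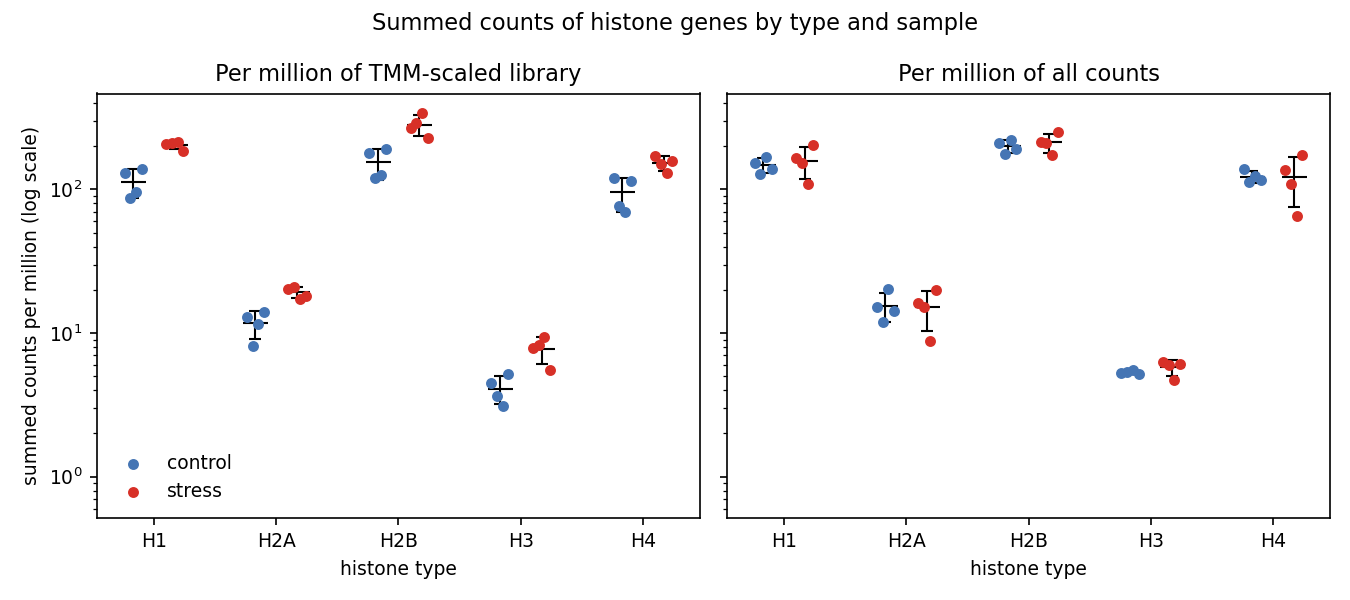
Summed CPM (log axis) of the histone genes of each type in the 8 samples, scaled by the TMM-scaled library (left) and by all counts (right); black bars give the mean and SD of 4 samples. On the left the groups separate in every type and on the right they overlap in every type.

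Among the 6 H1 genes, Hist1h1c, which encodes the linker histone H1.2, gave nearly all counts. Its CPM was 130, 86.4, 94.9 and 138 in the control samples and 208, 211, 213 and 184 in the stress samples. All stress samples lay above all control samples, and the log2 fold change was 0.86 ± 0.16 (SE) with an adjusted p of 0.00391, which is under the fold of the call. Hist1h1d, the only other H1 gene tested, had 4 to 17 counts a sample and a log2 fold change of 0.59 ± 0.60 (adjusted p = 0.537). Hist1h1e had 69 counts in all and was not tested.

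Of the 18 H2A genes 6 were tested, all with a positive log2 fold change and a median of 0.72. Hist1h2ac, the most abundant, gave 9.62, 5.24, 9.41 and 9.46 CPM in the control samples and 14.1, 15.4, 10.9 and 12.2 in the stress samples. These groups did not overlap (log2 fold change 0.65 ± 0.18, adjusted p = 0.0346). Hist1h2ab had the largest log2 fold change of the type, 1.34 ± 0.44, from 6 to 20 counts a sample, and did not pass (adjusted p = 0.0573). Hist1h2ae had 0.842, 0.832, 0.390 and 1.29 CPM against 1.29, 1.67, 1.75 and 2.05. Its lowest stress sample was barely above its highest control sample, and the log2 fold change of 1.05 ± 0.35 did not pass (adjusted p = 0.0630). Hist1h2ac, Hist1h2ab and Hist1h2ae encode 1 and the same protein. Hist2h2aa1, with the lowest value of the type at 0.39 ± 0.47 (adjusted p = 0.615), is a copy of Hist2h2aa2, and the summed pair had 0.44 ± 0.33 (adjusted p = 0.395).

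Of the 18 H2B genes 11 were tested, 9 of them with a positive log2 fold change and a median of 0.50. Hist1h2bc, a 2-exon gene at chr13:23684199-23692908, was the most abundant, with 150, 94.7, 96.6 and 152 CPM in the control samples and 217, 229, 281 and 186 in the stress samples. The groups were separate, and the log2 fold change was 0.89 ± 0.19 (adjusted p = 0.00848). Hist1h2be, which encodes the same protein, had 4.95, 3.54, 3.34 and 4.67 CPM against 7.49, 8.54, 8.42 and 7.20. These did not overlap either, and the log2 fold change of 0.95 ± 0.16 (adjusted p = 0.00258) stopped short of 1. Annotated exons of Hist1h2be overlap those of Hist1h1e, so reads there could belong to either. Hist1h2bn, in the group of 6 genes that share a protein with Hist1h2bq, had 16.9, 10.5, 12.6 and 20.4 CPM against 29.4, 28.2, 28.7 and 21.3 (log2 fold change 0.84 ± 0.19, adjusted p = 0.0131). Its highest control and lowest stress samples were close. Hist2h2be, on chromosome 3, had the lowest log2 fold change of all members, -0.30 ± 0.19 (adjusted p = 0.313), with 3.64, 3.77, 5.07 and 3.85 CPM against 2.99, 3.53, 2.50 and 4.13, and the groups overlapped.

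Hist1h2bq had the largest log2 fold change of any histone gene, 3.89 ± 0.62 (adjusted p = 0.00263). Its counts were 16, 23, 25 and 20 in control samples 1 to 4 and 19, 153, 184 and 183 in stress samples 1 to 4, which in CPM is 0.435, 0.445, 0.361 and 0.631 against 0.848, 7.10, 14.0 and 5.86. Stress sample 1 was thus near the control samples and the other 3 far above. Its copy Hist1h2br had 13, 223, 286 and 112 counts in the control samples and 87, 127, 8 and 21 in the stress samples, with no call (log2 fold change -0.16 ± 0.70, adjusted p = 0.907). Hist1h2br was low in 2 of the 3 samples where Hist1h2bq was high. Hist1h2bq took 55.2%, 9.35%, 8.04% and 15.2% of the counts of the pair in the control samples and 17.9%, 54.6%, 95.8% and 89.7% in the stress samples. The sum of the pair was 0.788, 4.76, 4.50 and 4.16 CPM against 4.73, 12.99, 14.6 and 6.53. On the sum the groups overlapped, and the log2 fold change of 1.41 ± 0.46 did not pass (adjusted p = 0.0617). Hist1h2bq was also not called with limma-voom (3.27, adjusted p = 0.0738), without a count filter (adjusted p = 0.0321), with the replicate number as a block (adjusted p = 0.0237) or when control sample 3, stress sample 2 or stress sample 3 was left out (adjusted p = 0.0239, 0.0148 and 0.0144).

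**Figure D4:**
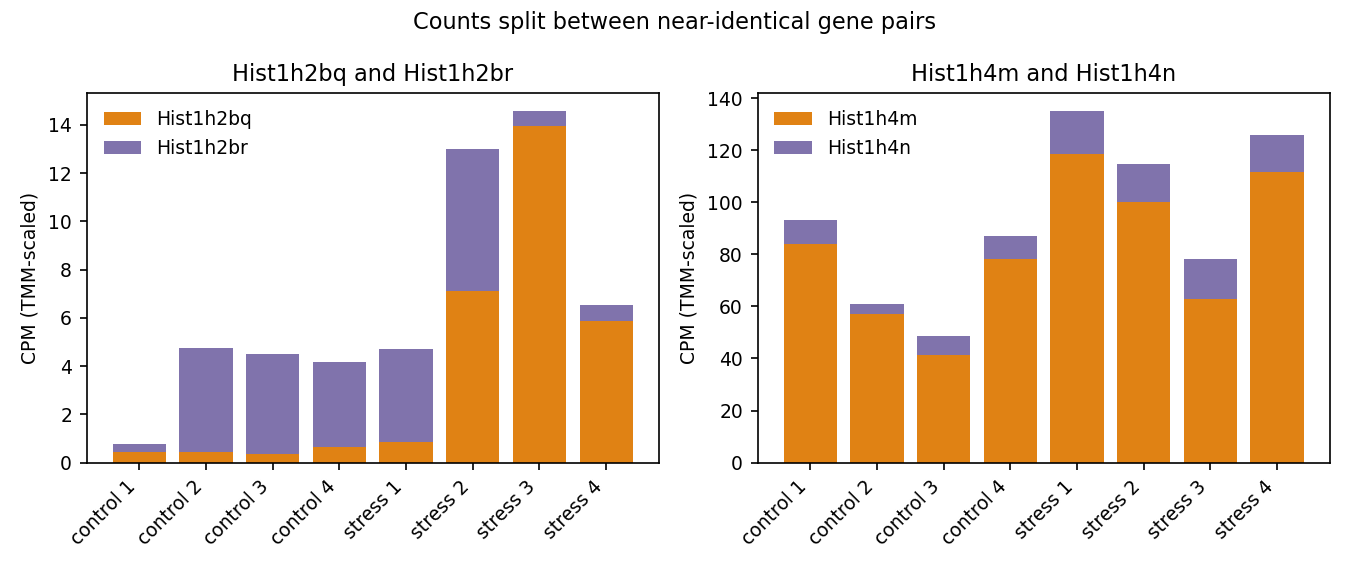
CPM on the TMM scale in each sample for Hist1h2bq and Hist1h2br (left) and for Hist1h4m and Hist1h4n (right), stacked so that the bar height is the sum of the pair. Hist1h2br makes up most of the bar in control samples 2 to 4 and stress sample 1, and Hist1h2bq most of it in stress samples 3 and 4.

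Of the 12 H3 genes 3 were tested, with a median log2 fold change of 0.85. Hist1h3i, in the group of 4 genes that encode 1 H3 protein, had 2.64, 2.13, 1.46 and 2.74 CPM in the control samples and 4.77, 4.73, 5.46 and 2.47 in the stress samples. Stress sample 4 lay within the control range, and the log2 fold change was 0.95 ± 0.27 (adjusted p = 0.0315). Hist1h3d, of the group of 8 genes with the other H3 protein, had 0.652, 0.948, 0.838 and 1.10 CPM against 1.38, 1.48, 2.05 and 1.54, which did not overlap (0.85 ± 0.28, adjusted p = 0.0597). Hist2h3c1 had 4 to 18 counts a sample and a log2 fold change of 0.57 ± 0.46 (adjusted p = 0.429).

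Of the 13 H4 genes, which encode 1 protein, 6 were tested, 5 of them with a positive log2 fold change and a median of 0.70. Hist1h4m, the most abundant, had 83.9, 56.9, 41.2 and 78.2 CPM in the control samples and 119, 100.1, 62.9 and 112 in the stress samples. Stress sample 3 lay within the control range, and the log2 fold change of 0.60 ± 0.24 did not pass (adjusted p = 0.108). Its copy Hist1h4n had 9.18, 4.06, 7.26 and 8.64 CPM against 16.3, 14.6, 15.3 and 14.0. Here the groups did not overlap, and Hist1h4n was called (1.05 ± 0.20, adjusted p = 0.00563). The annotated transcripts of the pair differed at 1 base, G36A, the base of Hist1h4m first and counted from its 5' end, and in 28 bases at which 1 of them has a gap. Of the 100-base stretches 88.1% of Hist1h4m and 80.7% of Hist1h4n were found in the other. The summed pair had a log2 fold change of 0.65 ± 0.22 (adjusted p = 0.0655), and Hist1h4n took between 6.66% and 19.5% of its counts. The call of Hist1h4n was also lost when control samples 2 or 3 or any 1 of the 4 stress samples was left out, with log2 fold changes of 0.85 to 1.09. Hist1h4i lies at chr13:22040636-22041362, apart from Hist1h4m and Hist1h4n but near Hist1h2ag and Hist1h2bj. It had 17.9, 11.0, 14.4 and 18.3 CPM against 26.4, 22.9, 39.4 and 23.7, with no overlap (0.86 ± 0.20, adjusted p = 0.0141). Hist2h4 had the lowest log2 fold change of the type, -0.03 ± 0.85 (adjusted p = 0.984), from 0 to 28 counts a sample.

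Of the 28 tested genes 22 lie on chromosome 13, and these 22 had a median log2 fold change of 0.82. All 9 genes with an adjusted p below 0.05 are among them. The 5 tested genes on chromosome 3 had a median of 0.39 and Hist3h2ba on chromosome 11 had 0.93 (adjusted p = 0.121). The difference between the clusters was not tested. The other 39 genes were too low to be tested. Together they had 67 to 130 counts a sample and 2.54 ± 0.659 CPM in the control group against 4.41 ± 0.897 in the stress group, 1.74-fold on the TMM scale and 1.01-fold as CPM of all counts. Of these, 8 had 40 or more counts in all: Hist1h2ad had 71, Hist1h1e 69, Hist1h4k 58, Hist1h3c 55, Hist1h3b 51, Hist1h2ap 45, Hist1h2bf 42 and Hist1h2an 40. No fold change is given for these.

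Variant histone genes, which are also expressed outside S phase, had a median log2 fold change of 0.25. Many variant histones can replace the replication-dependent ones in chromatin outside S phase, and most of their messages are polyadenylated. Of 10 tested, 8 had a positive log2 fold change, and none was called by edgeR, DESeq2 or limma-voom. With an adjusted p below 0.05, 1 was higher and 0 were lower, against 10.4% and 3.69% of all tested genes. By total counts alone 0 of 10 were above 0, on a scale where the median of all genes is -0.82. H2afj, an H2A variant, had 0.78 ± 0.23 (adjusted p = 0.0437), and H3f3a, which encodes H3.3, had 0.77 ± 0.26 (adjusted p = 0.0622). H3f3b, which encodes the same protein, had 0.24 ± 0.13 (adjusted p = 0.203). The log2 fold changes were 0.26 for H2afz, 0.12 for H2afv, 0.26 for H2afx, the variant phosphorylated at DNA breaks, -0.23 for H2afy, which encodes macroH2A, and -0.20 for the linker variant H1f0, with adjusted p from 0.177 to 0.665.

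Most genes that make or process histone messages had negative values, and they include transcription factors, cleavage factors and decay factors. Of 19 tested, 4 had a positive log2 fold change, the median was -0.17, and none was called by edgeR, DESeq2 or limma-voom. With an adjusted p below 0.05, 0 were higher and 3 lower, against 10.4% and 3.69% of all tested genes. In 6 every stress sample was below every control sample, where 9.88% of all tested genes were. By total counts alone 0 of 19 were above 0, with a median of -0.96, against -0.82 for all genes. On that scale 4 were called lower, as were 728 of all 11718 tested genes. Slbp, the stem-loop binding protein, had 0.04 ± 0.16 (adjusted p = 0.887), with 10.2, 12.9, 11.2 and 9.30 CPM against 11.95, 11.1, 14.3 and 8.20. Npat, the coactivator of histone transcription in S phase, had -0.43 ± 0.19 (adjusted p = 0.148), and Casp8ap2, a partner in the histone locus body, -0.19 ± 0.13 (adjusted p = 0.325). Lsm10 and Lsm11, of the U7 snRNP that cleaves the message after the stem-loop, had 0.38 ± 0.29 and 0.05 ± 0.17 (adjusted p = 0.402 and 0.867). Pou2f1, which encodes the octamer-binding factor Oct-1, had the smallest p of the list, with 28.8, 26.7, 26.8 and 22.8 CPM against 17.6, 15.96, 10.5 and 18.2. It was lower in every stress sample (-0.74 ± 0.15, adjusted p = 0.00590), short of the fold of the call.

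Genes of DNA replication had 10 of 25 positive values with a median of -0.10, none called and 0 with an adjusted p below 0.05. Of all tested genes, 10.4% were higher and 3.69% lower at that level. Pcna, the sliding clamp, had 0.06 ± 0.17 (adjusted p = 0.853), and Fen1, the flap endonuclease, -0.48 ± 0.16 (adjusted p = 0.0622). Genes of mitosis had 14 of 18 positive values with a median of 0.35, none called and 3 with an adjusted p below 0.05, all higher. Ccna2, cyclin A, had 4.78, 4.41, 2.28 and 5.14 CPM against 9.06, 8.03, 8.73 and 5.15 (0.90 ± 0.25, adjusted p = 0.0325), and Mki67 had 0.45 ± 0.20 (adjusted p = 0.142). Histone chaperones had 8 of 18 positive values with a median of -0.02, none called and 0 with an adjusted p below 0.05. Anp32e, a chaperone of H2A.Z, had the smallest p (0.66 ± 0.21, adjusted p = 0.0576). DESeq2 and limma-voom also called 0 in these lists. By total counts alone 0, 5 and 0 of the values in replication, mitosis and chaperones were above 0, on a scale where the median of all genes is -0.82.

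Markers of several blood cells moved with the groups. The summed platelet markers, 17 of 17 above 0 and 6 called higher (median log2 fold change 0.99), were 3890, 2711, 2661 and 3956 CPM in the control samples and 6215, 6777, 7239 and 6120 in the stress samples. The groups were separate, as they were for the summed histone genes, and controls 2 and 3 were the lowest in both. The histone sum amounted to 10.9% to 11.7% of the platelet marker sum in the control samples and 9.74% to 10.9% in the stress samples. Erythroid markers, 13 of 14 above 0 and none called (median 0.93, 1 higher with an adjusted p below 0.05), summed to 14057 to 39265 CPM against 31133 to 67184, and Gata1 had the smallest p (0.89 ± 0.16, adjusted p = 0.00319). The histone sum was 1.18% to 2.17% of the erythroid sum in the control and 1.06% to 1.92% in the stress samples. Neutrophil and classical monocyte markers had medians of 1.48 and 1.95, with 11 of 15 and 8 of 10 called higher. Their sums, 203 to 397 CPM against 624 to 919 for neutrophils and 331 to 457 against 704 to 1230 for monocytes, were also separate between the groups, with controls 2 and 3 again the lowest. The histone sum was 99.02% to 151% of the neutrophil sum in the control and 64.9% to 109% in the stress samples, and 78.7% to 105% and 52.7% to 96.5% of the monocyte sum. B cell markers were below 0 in 10 of 10 (median -0.53), with sums of 1061 to 1308 CPM against 722 to 949.7, separate in the other direction, and T cell markers were below 0 in 7 of 11 (median -0.05), with sums of 638 to 689 against 543 to 738. The histone sum was 22.9% to 42.9% of the B cell sum in the control and 62.8% to 94.1% in the stress samples, and 44.3% to 70.9% and 92.1% to 124% of the T cell sum. None of the erythroid, B or T cell markers was called by edgeR with TMM, DESeq2 or limma-voom. With an adjusted p below 0.05, 6 B cell and 0 T cell markers were lower, against 3.69% of all tested genes. By total counts alone calls changed: 10 of 10 B cell markers were called lower (median -1.31), and 0 platelet, 2 neutrophil and 4 monocyte markers were called higher. On that scale 728 of all 11718 tested genes were called lower and 14 higher. By flow cytometry the paper counted more neutrophils in stressed blood, but fewer monocytes and fewer B, T and NK cells. Monocyte markers went the other way from that count, also by total counts alone (median 1.27). T cell markers had a median of -0.88 by total counts alone, near that of all genes on that scale (-0.82). Marker sums are therefore not to be read as cell numbers. The part of these cell types in the histone result was not tested.

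**Figure D5:**
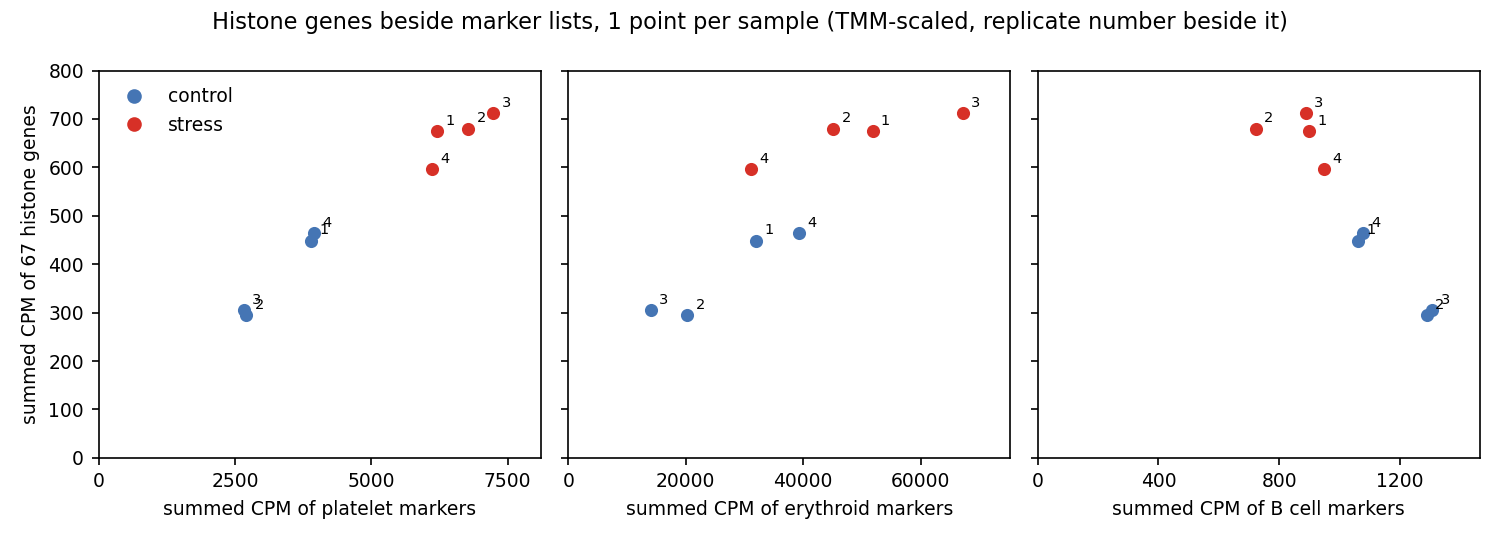
Summed CPM of the 67 histone genes (vertical axis) against the summed CPM of platelet, erythroid and B cell markers (horizontal axes), 1 point per sample with its replicate number. Control samples 2 and 3 are lowest for histone genes and for platelet and erythroid markers and highest for B cell markers.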

How the data were processed

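RNA from the peripheral blood of 4 control and 4 stress samples was sequenced, and the authors deposited whole-number counts per gene symbol without normalization. The submitters' processing notes name HISAT2, featureCounts and mm10; annotation, strand setting and treatment of reads with several matches are not given in the sources used here. The groups come from the sample titles. Counts were tested with edgeR 4.0.16 in R 4.3.3 (robust quasi-likelihood test, TMM, Benjamini-Hochberg adjustment over 11718 genes with 10 or more counts in at least 4 samples), checked on simulated data. Library totals were 25978683 to 39014775. SE was the log2 fold change divided by the square root of F. Alternatives were DESeq2 1.42.0 (the tool of the study), limma-voom 3.58.1, other normalizations and filters, the replicate number as a block, and each sample omitted in turn. Positions, transcripts and translated coding parts were from GENCODE M21, promoters from RefSeq. Proteins were grouped by translating GENCODE coding parts, in place of RefSeq proteins as first planned.

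The histone genes and gene lists were chosen with earlier results of these data known. Named were members called, with an adjusted p below 0.05, the 2 highest by CPM and the highest and lowest fold change of each type, untested members with 40 or more counts, the gene of smallest p of each list, and a set of variant histones and factors.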

Additional observations from a re-analysis of the deposited data

Results flagged for a closer look

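In groups of 4 samples, 1 sample stood far from the other 3 in 6 of the 70 groups examined, by Dixon's gap ratio at its 95% critical value, where chance gives about 1 in 20 groups. Hist1h4c had 8.68 CPM in stress sample 2 against 5.93 to 6.15 in the others. Hist2h2be had 5.07 CPM in control sample 3 against 3.64 to 3.85. Hist1h2bg had 1.26 CPM in control sample 4 against 0.484 to 0.607. Hist1h2bn had 21.3 CPM in stress sample 4 against 28.2 to 29.4. Hist1h2ac had 5.24 CPM in control sample 2 against 9.41 to 9.62. The sum of Hist1h2bq and Hist1h2br was 0.788 CPM in control sample 1 against 4.16 to 4.76, and both copies had 16 or fewer counts there.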

How the results depend on the processing

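With TMM, 198 genes were called higher and 2 lower. DESeq2 called 307 and 12, and an adjusted p below 0.05 alone passed 1222 and 432, while total counts alone gave 14 and 728. Lower calls were 4 with upper quartile factors or no count filter and 1 with the replicate block. Of the 2 histone genes called higher, Hist1h4n was the 1 called with limma-voom, no count filter or the replicate block, and Hist1h2bq the 1 called by total counts alone. With the copies summed 0 were called. In the main fit, without the sum, 9 of the 28 tested had an adjusted p below 0.05 with no fold threshold. Histone genes called lower were 0 throughout. The histone median of 0.72 became -0.034 by total counts alone, a scale on which the median of all genes is -0.82. The log2 ratio of the summed histone counts, 0.82, was 0.062 per all counts and 0.43 per counts outside haemoglobin.

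By total counts alone 12 members changed sign: Hist1h2bp (-0.49), Hist2h2aa2 (-0.23), Hist2h3c1 (-0.19), Hist2h2aa1 (-0.23), Hist1h4c (-0.28), Hist1h4h (-0.020), Hist1h4m (-0.048), Hist1h1d (-0.20), Hist1h2bg (-0.54), Hist1h2bb (-0.58), Hist1h2bj (-0.34) and Hist1h2ac (-0.12). Hist2h4 became 0.026 with DESeq2 and 0.0012 with the replicate block. Leaving out 1 sample at a time, 5 members took both signs: Hist1h2bp (-0.19 to 0.80), Hist1h2br (-0.80 to 0.21), Hist1h2bb (-0.29 to 0.38, tested in 4 of the 8 fits), Hist1h2bg (-0.26 to 0.58) and Hist2h4 (-0.42 to 0.48, also in 4). None of these had passed the test, other than Hist1h2ac at an adjusted p below 0.05, and apart from the scale the cause was not tested.

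Leaving out 1 sample gave 76 to 340 genes called higher, 1 to 8 lower, 0 to 6 histone genes called higher and a histone median of 0.54 to 0.98, with a log2 ratio of the sum of 0.71 to 0.93. The count filter was applied again in each of these fits, so the medians are over 25 to 27 of the 28 genes. No histone gene was called without control replicate 3, stress replicate 2 or stress replicate 3, and 6 were without control replicate 4. RLE size factors and leaving out the haemoglobin genes kept the 2 calls Hist1h2bq and Hist1h4n. With 10 counts in every sample 18 members were left, and the H2B median was 0.88 against 0.50.

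Same-numbered control and stress samples showed little shared deviation (correlations 0.06, 0.0004, -0.04 and -0.16). With 4 samples a group this check cannot exclude a weak pairing. The sources used here do not say whether the numbers pair the samples. With the block Hist1h2bq was not called and Hist1h4n was (adjusted p = 0.00384). Below about 10 counts a sample single histone genes could not be resolved.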
